A study of Mus musculus with 9 samples.

Results

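10 genes of hepatic triglyceride synthesis were followed across 3 diets in mouse liver: Mogat1 and Mogat2, Gpam, Agpat2, Agpat3, Lpin1 and Lpin2, Dgat1 and Dgat2, and Fitm1. They were taken as every probe whose assigned gene name was 1 of these symbols (Fitm1 could also be matched under its older name Fit1). Names were assigned first by the probe's accession in RefSeq's table, and otherwise by another accession, the array's gene name or a synonym. This gave 25 of the 41174 probes and 10 of the 17634 genes and transcripts tested. The livers came from male C57bl/6J mice aged 16 weeks that had eaten standard chow (chow), a diet with fat at 60 kcal% (HFD), or the same fat-rich diet carrying 40 g of Astragalus polysaccharides per kg (HFD+APS), each for 12 weeks. Each group had 3 livers and 1 array per liver. Out of 24 mice, the authors chose these 9 livers on HE staining and triglyceride content, so the p-values describe the spread between chosen livers. The sizes of change are likewise those between chosen livers. Triglyceride is the product of this pathway, and what the choice did to the group differences was not tested. HFD and HFD+APS share the fat-rich diet, and HFD+APS differs from chow in both the base diet and the polysaccharides. The fat content of chow is not given in the sample annotation used here.

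Triglyceride is built by adding fatty acids to a glycerol backbone, and diacylglycerol, its last precursor, can be made by either of a pair of routes. In the glycerol-phosphate route, the main route of liver, GPAT enzymes such as Gpam acylate glycerol 3-phosphate, AGPAT enzymes add the next fatty acid to give phosphatidic acid, and lipins remove the phosphate. In the monoacylglycerol route, best known from the absorbing intestine, MOGAT enzymes acylate monoacylglycerol to diacylglycerol directly. DGAT enzymes then add the last fatty acid, and FIT proteins such as Fitm1 help to move the finished triglyceride into lipid droplets.

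Signals are given as log2 of the array's processed signal less that array's 75th percentile, so 0 marks a signal equal to that percentile, and values of different probes cannot be set against each other. Each gene is read from its brightest detected probe, and limma called a change where p, adjusted by Benjamini and Hochberg's method across the 17634 features, was under 0.05. Every probe used for the 10 genes was well above background on all 9 arrays, and no probe used was saturated. By the barcodes of the arrays, from which slides were inferred here, the chow arrays lay on slide 1, the HFD arrays and HFD+APS 1 on slide 2, and HFD+APS 2 and 3 on slide 3. On slide 2 between 50.4% and 54.1% of spots were well above background, against 61.5% to 68.4% on slide 1 and 63.5% to 64.5% on slide 3. For HFD against chow and for HFD+APS against chow, slide and group cannot be told apart, while HFD+APS 1 shared its slide with the HFD arrays. The livers carried the markers of hepatocytes, all 6 of which were tested. In whole liver, fewer cells of a type and less RNA per cell cannot be told apart.

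Probe sequences of the genes that changed, with Mogat2 for comparison, are shown to place the signal in the genes. They are the probe sequences of the deposited files in lower case, with mm9 positions from the same files, which give no strand; whether a probe lies in a particular exon was not determined here. The Mogat1 sequences are those of its 2 other probes, which were read only as a check of the brightest, and of Mogat2 and Gpam only the first 30 and 40 bases are given.
Mogat1 probe A_51_P112151 (chr1:78534556-78534615): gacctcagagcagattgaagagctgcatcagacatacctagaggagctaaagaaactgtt
Mogat1 probe A_52_P364021 (chr1:78525761-78525820): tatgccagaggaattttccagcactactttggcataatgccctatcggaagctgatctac
Mogat2 probe A_52_P125795 (chr7:106375119-106381004): catatggaagtacatgaaggattatttccc
Gpam probe A_52_P11388 (chr19:55145403-55145462): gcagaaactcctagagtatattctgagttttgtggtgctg
Fitm1 probe A_51_P164630 (chr14:56194734-56195160): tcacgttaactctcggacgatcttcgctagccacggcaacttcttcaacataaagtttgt
By the positions in the files, the 60 bases of the Mogat2 probe are spread over 5886 genomic bases and those of the Fitm1 probe over 427. Such spans would arise where a probe crosses an intron, but neither was checked against exons. Over 274 pairs of probes from different members, the longest run of bases that a pair had in common was 11, so no probe is a near copy of a probe of another member.

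The fat-rich diet was accompanied by higher Mogat1 and Fitm1 signal and lower Gpam signal, and with the polysaccharides Mogat1 alone of the 10 genes passed the test, in the opposite direction. In HFD against chow 2 members rose and 1 fell, and 10.9% of all features were called, 4.55% higher and 6.39% lower. At an unadjusted p under 0.05 there were 4 of the 10, against 31.4% of features. When HFD+APS was set against HFD, 0 rose and 1 fell, where limma called 1.5% of features, 0.476% higher and 1.03% lower. There 2 members had an unadjusted p under 0.05, against 17.9% of features. When HFD+APS was set against chow, 0 rose and 1 fell, where limma called 3.48% of features, 0.964% higher and 2.52% lower. There 4 members had an unadjusted p under 0.05, against 25.2% of features. The median change over the 10 members was -0.07, -0.15 and -0.11 in the 3 comparisons, against -0.04, 0 and -0.03 over all features. Groups did not overlap for 5 members in HFD against chow, where the same held for 38.9% of all features. The number was 2 for HFD+APS against HFD (24.5% of all features) and 4 for HFD+APS against chow (30.9%). The members' shares of separated groups were thus near those of all features.

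**Figure D1:**
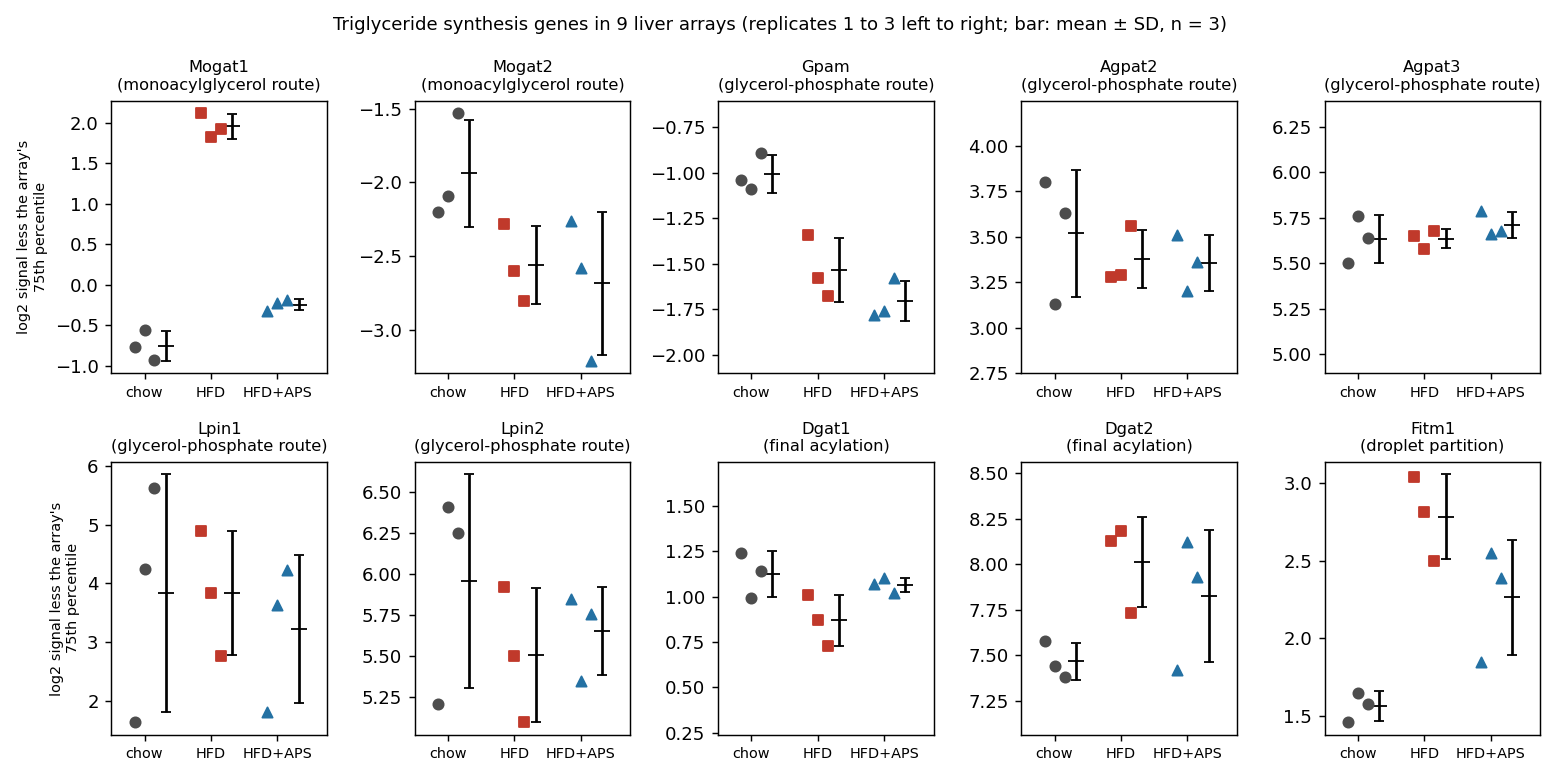
Log2 signal less the array's 75th percentile (vertical axes, each with its own range) for the 10 genes in each of the 9 arrays, with bars at the mean ± SD of 3. The 3 HFD arrays stand apart from the other 6 for Mogat1 (1.82 to 2.12 against -0.93 to -0.19), while Lpin1 spreads from 1.63 to 5.62 within chow.

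The monoacylglycerol route held the largest change. Mogat1, the enzyme that makes diacylglycerol from monoacylglycerol, read -0.77, -0.56 and -0.93 in chow 1 to 3, 2.12, 1.82 and 1.92 in HFD 1 to 3, and -0.32, -0.22 and -0.19 in HFD+APS 1 to 3. All 3 HFD arrays lay far above every other array, and the HFD+APS arrays lay in a narrow band just above chow. The group means were -0.75 ± 0.19, 1.95 ± 0.15 and -0.25 ± 0.07 (SD, n = 3 each). Mogat1 rose 6.52-fold in HFD against chow (log2 change 2.70 ± 0.13 SE, 95% interval 2.41 to 3.00, limma adjusted p = 0.000354), which ranked it 1 by p and 42 by size of change among the 17634 features. It was 4.59-fold lower in HFD+APS than in HFD (log2 change -2.20 ± 0.13, interval -2.49 to -1.90, limma adjusted p = 0.000608), rank 2 by p and 69 by size. These comparisons share the HFD arrays. HFD+APS did not overlap chow, at 1.42-fold higher (0.51 ± 0.13, interval 0.21 to 0.80), but missed the threshold (limma adjusted p = 0.0658). It passed with array weights (0.61, adjusted p = 0.0123), with the mean of the gene's probes (0.84, adjusted p = 0.0497) and over probes well above background on all 9 arrays (adjusted p = 0.0465). Array weights called 3527 of all features in this comparison, against 614 in the main fit. In 17 of 20 alternatives the difference between HFD+APS and chow did not pass, among them every fit that left out 1 array. Both changes that involve HFD were called in each of the 9 fits that left out 1 array, between 2.61 and 2.80 for HFD against chow and between -2.26 and -2.11 for HFD+APS against HFD. With a fixed block for slide the HFD+APS arm is HFD+APS 1 alone, set against HFD 1 to 3 on slide 2, and is assumed to vary like the other groups. On that footing Mogat1 stood at -2.27 ± 0.19 (limma adjusted p = 0.00664).

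All 3 Mogat1 probes gave the same order of the groups, HFD highest, HFD+APS next and chow lowest. The brightest probe lies on chromosome 1 from 78534646 to 78534705 (mm9). The probe beginning with gacctcagagca above, which lies close beside it, read -1.44, -1.39 and -1.65 in chow, 1.76, 1.33 and 1.49 in HFD and -0.82, -0.42 and -0.42 in HFD+APS, which are differences of 3.02 for HFD less chow and -2.08 for HFD+APS less HFD. The probe beginning with tatgccagagga, which lies at a lower coordinate, read -3.52, -3.21 and -3.81 in chow, 0.51, 0.02 and 0.15 in HFD and -3.06, -2.19 and -2.06 in HFD+APS, differences of 3.74 and -2.66. That probe was well above background on 8 arrays. The distance between HFD+APS and chow was 0.51, 0.94 and 1.08 on the 3 probes, so its size depended on the probe.

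Mogat2, the MOGAT of the small intestine, had no pattern that its 2 probes shared. Its brightest probe, matched to an Ensembl transcript, read -2.20, -2.09 and -1.53 in chow, -2.28, -2.60 and -2.80 in HFD and -2.26, -2.58 and -3.21 in HFD+APS. Every array of both fat-fed groups lay below chow, and neither difference passed (HFD against chow -0.62 ± 0.28, interval -1.25 to 0.01, limma adjusted p = 0.166; HFD+APS against chow -0.74 ± 0.28, limma adjusted p = 0.146). With array weights HFD+APS against chow passed, at -1.17 (adjusted p = 0.0178). The second probe, of the RefSeq transcript and well above background on 7 arrays, read -2.47, -4.14 and -4.08 in chow, -2.12, -2.36 and -0.95 in HFD and -2.78, -2.11 and -2.58 in HFD+APS. It went the other way from chow (1.75 for HFD and 1.08 for HFD+APS), and the mean of both probes was 0.57 for HFD against chow, so no direction can be given for Mogat2. HFD+APS against HFD was -0.12 ± 0.28 by the brightest probe (interval -0.75 to 0.51, limma adjusted p = 0.856). On the second probe HFD+APS less HFD was -0.68, so its group means were in the order seen for Mogat1, with HFD not overlapping chow.

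The glycerol-phosphate route was represented by 5 genes, of which 0 rose and 1 fell in HFD against chow, 0 and 0 with HFD+APS against HFD, and 0 and 1 for HFD+APS relative to chow. Over all features 10.9%, 1.5% and 3.48% were called in these comparisons. At an unadjusted p under 0.05 in limma the counts were 1, 0 and 1 of 5, against 31.4%, 17.9% and 25.2% of features, so the route's counts do not set it apart. The medians were -0.14, -0.02 and -0.30. The gene that fell was Gpam in both cases.

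Gpam, the mitochondrial acyltransferase that starts the route, read -1.04, -1.09 and -0.89 in chow, -1.34, -1.58 and -1.68 in HFD and -1.78, -1.76 and -1.58 in HFD+APS. The 3 chow arrays were highest, and the fat-fed groups overlapped each other. Gpam was 1.44-fold lower in HFD than in chow (-0.53 ± 0.12, interval -0.81 to -0.25, limma adjusted p = 0.0345) and 1.63-fold lower in HFD+APS than in chow (-0.70 ± 0.12, interval -0.98 to -0.42, limma adjusted p = 0.0306). Between HFD+APS and HFD it stood at -0.17 ± 0.12 (interval -0.46 to 0.11, limma adjusted p = 0.485). Both calls were near the threshold: the first was lost in 13 of 20 alternative fits and the second in 11 of 20, with normexp background correction giving -0.26 (adjusted p = 0.151) and -0.36 (adjusted p = 0.0819). Leaving out HFD 2, HFD+APS 2, HFD+APS 3 or any 1 of the chow arrays ended both calls (adjusted p at most 0.0993 and 0.103), and leaving out HFD 3 ended the first. Gpam has 1 probe on the array.

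The AGPAT members, which make phosphatidic acid, did not pass the test in any comparison. Agpat2 read 3.80, 3.13 and 3.63 in chow, 3.28, 3.29 and 3.56 in HFD and 3.51, 3.20 and 3.36 in HFD+APS, with chow 2 the lowest array and chow 1 the highest. Its change was -0.14 ± 0.19 in HFD against chow (interval -0.57 to 0.28, limma adjusted p = 0.633) and -0.02 ± 0.19 in HFD+APS against HFD (interval -0.45 to 0.41). Agpat3 was the steadiest member, at 5.50, 5.76 and 5.64 in chow, 5.65, 5.58 and 5.68 in HFD and 5.79, 5.66 and 5.68 in HFD+APS. Its intervals were the narrowest of the 10, -0.23 to 0.24 for HFD against chow (0.01 ± 0.10) and -0.17 to 0.30 for HFD+APS against HFD (0.07 ± 0.10). The dimmer Agpat3 probe did not follow: it read 4.22 in chow 2, 4.32 in HFD 2, 4.25 in HFD+APS 1 and 4.17 in HFD+APS 3, and 3.15 to 3.42 on the other arrays, a split that crossed all 3 groups.

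The lipins dephosphorylate phosphatidic acid to diacylglycerol and also act as transcriptional coregulators. Lpin1 was the most variable member between mice of the same diet, at 1.63, 4.25 and 5.62 in chow, 4.89, 3.84 and 2.77 in HFD and 1.81, 3.63 and 4.23 in HFD+APS. Its 9 arrays spanned 3.99 on the log2 scale, with chow 1 and HFD+APS 1 lowest and chow 3 highest. The 3 other Lpin1 probes ranked chow 1 lowest and chow 3 highest too, for example at 0.31 and 4.22 on the dimmest, although 2 of the 4 probes share 40 bases. No diet difference could be resolved against this spread: HFD against chow was 0.00 ± 1.06 (interval -2.43 to 2.42), moving to -1.11 without chow 1 and 0.89 without chow 3, and HFD+APS against HFD was -0.61 ± 1.06 (interval -3.03 to 1.81, limma adjusted p = 0.802).

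Lpin2, a lipin abundant in liver, read 5.21, 6.41 and 6.25 in chow, 5.92, 5.50 and 5.10 in HFD and 5.85, 5.35 and 5.76 in HFD+APS. Chow 1 lay among the fat-fed arrays, and HFD against chow was -0.45 ± 0.34 (interval -1.23 to 0.33, limma adjusted p = 0.4). It moved to -0.82 without chow 1 (adjusted p = 0.0943), -0.22 without chow 2, -0.30 without chow 3 and -0.24 without HFD 3, and to -1.01 with the mean of its probes (adjusted p = 0.123). All 5 Lpin2 probes were lower in HFD than in chow on average, by -0.45 and -0.58 on the RefSeq probes and by -1.61, -1.17 and -1.26 on 3 probes designed to cDNA clones from within the gene's region. On those 3 probes HFD 3 was the lowest array, at -1.83, -0.86 and -2.33. HFD+APS less HFD was between 0.15 and 0.77 on the 5 probes, and 0.15 ± 0.34 in the fit (interval -0.63 to 0.92).

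**Figure D2:**
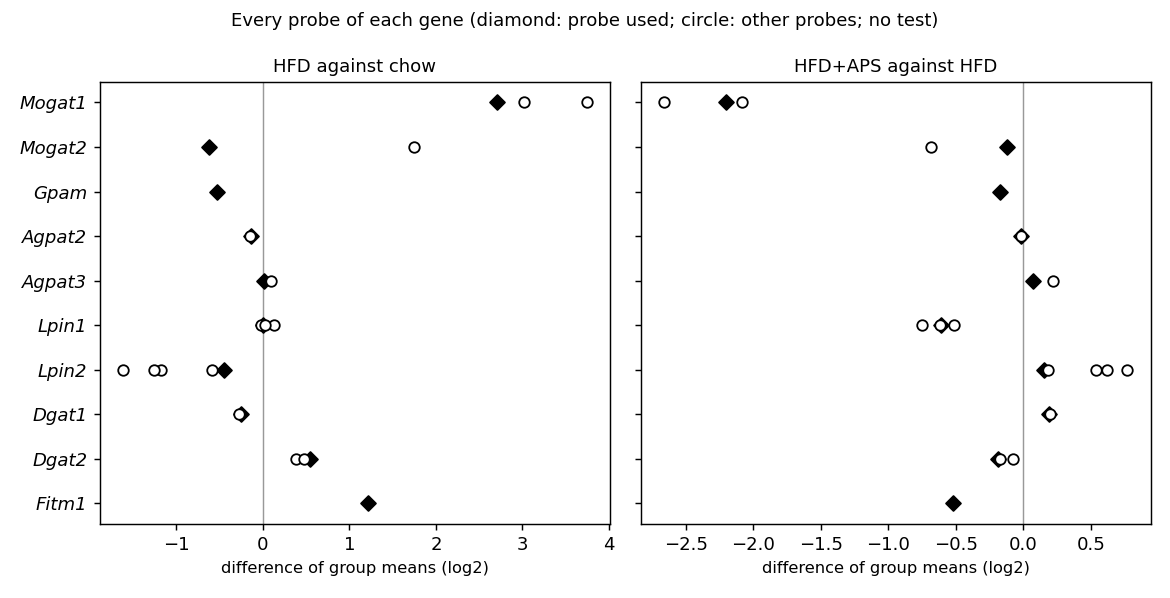
Difference of group means in log2 (horizontal axes) for each of the 25 probes of the 10 genes, in HFD against chow (left) and HFD+APS against HFD (right); diamonds are the probes used and circles the others. The 3 Mogat1 probes sit together at 2.70 to 3.74 in HFD against chow, the 4 Lpin1 probes lie near 0 there, and the 2 Mogat2 probes lie on opposite sides of 0.

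The members of the routes were set side by side within each array as a MOGAT gene less each glycerol-phosphate gene, relative to the chow mean of that difference. Mogat1 less Gpam was 0.02, 0.28 and -0.30 in chow, 3.21, 3.14 and 3.35 in HFD and 1.21, 1.29 and 1.13 in HFD+APS, so the 3 groups were fully separated. Mogat1 by itself already separated the 3 groups, and Gpam by itself was lower than chow in both fat-fed groups without overlap. The separation of their difference thus restates their own changes. The HFD mean was 3.23 ± 0.10 and the HFD+APS mean 1.21 ± 0.08 (SD, n = 3). Against Agpat2, Agpat3 and Lpin2 the HFD means were 2.85 ± 0.24, 2.70 ± 0.13 and 3.15 ± 0.33, and the HFD+APS means 0.67 ± 0.21, 0.43 ± 0.13 and 0.81 ± 0.30. In each of these the HFD arrays stood above all others. Against Lpin1 the groups overlapped, at -1.97 to 2.19 in chow, 1.82 to 3.74 in HFD and 0.17 to 2.46 in HFD+APS. For Mogat2, by its brightest probe, the groups overlapped against each of the 5 genes except Agpat3. Mogat2 less Gpam was -0.23, -0.07 and 0.29 in chow, 0, -0.09 and -0.18 in HFD and 0.45, 0.12 and -0.69 in HFD+APS. Mogat2 less Agpat3 was -0.28 to 0.40 in chow, -0.91 to -0.36 in HFD and -1.32 to -0.48 in HFD+APS, both below chow. By the brightest probes the separation was thus that of Mogat1 and not of both MOGAT genes. The second Mogat2 probe, which was 1.75 higher in HFD than in chow, was not set against the glycerol-phosphate genes. These within-array differences are a description, since no score over the members was tested, and they compare changes and not amounts of the enzymes.

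**Figure D3:**
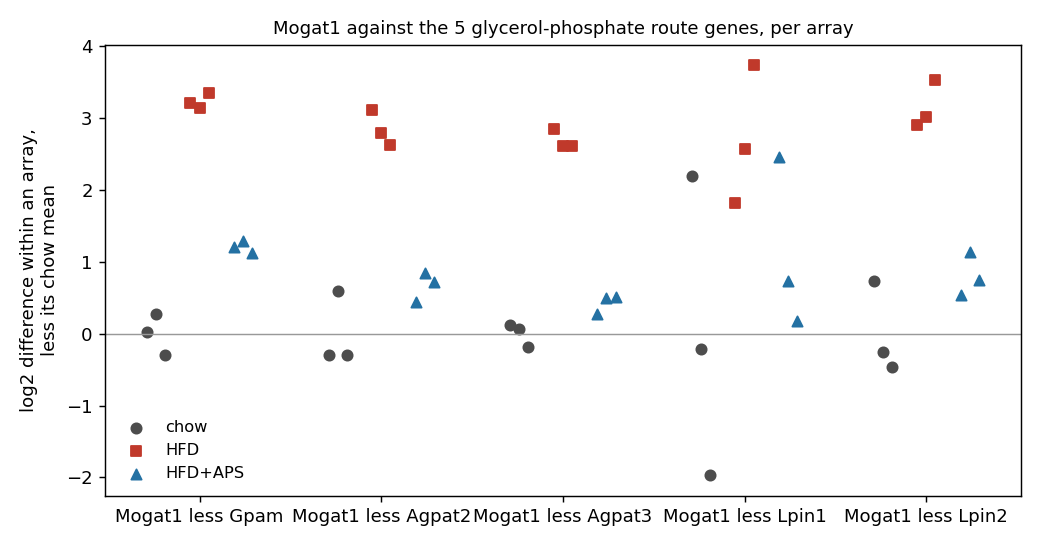
Mogat1 less each of 5 glycerol-phosphate route genes within an array (vertical axis, log2, relative to the chow mean), 1 point per array. The HFD points lie at 2.62 to 3.53 for Gpam, Agpat2, Agpat3 and Lpin2, above every chow and HFD+APS point, while the Lpin1 points of the 3 groups overlap.

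The final acylation, common to both routes, showed smaller differences that did not pass the test. Dgat1, an endoplasmic reticulum enzyme that also re-esterifies incoming fatty acids, read 1.24, 0.99 and 1.14 in chow, 1.01, 0.87 and 0.73 in HFD and 1.07, 1.1 and 1.02 in HFD+APS. HFD lay lowest, overlapping chow but not HFD+APS, at -0.25 ± 0.11 against chow (interval -0.51 to 0, limma adjusted p = 0.161) and 0.19 ± 0.11 for HFD+APS against HFD (interval -0.06 to 0.45, limma adjusted p = 0.395). Its second probe gave -0.27 and 0.20. Dgat2, tied to newly made fatty acids and to droplets, read 7.58, 7.44 and 7.38 in chow, 8.13, 8.18 and 7.73 in HFD and 7.42, 8.12 and 7.93 in HFD+APS. All HFD arrays lay above chow (0.55 ± 0.20, interval 0.10 to 1.0, limma adjusted p = 0.105), and the 3 probes gave 0.55, 0.38 and 0.48. The value passed with array weights (0.66, adjusted p = 0.0224) and without HFD+APS 1 (0.55, adjusted p = 0.0463). HFD+APS 1 was at the chow level and the other HFD+APS arrays at the HFD level, so HFD+APS against HFD was -0.19 ± 0.20 (interval -0.65 to 0.26). Without HFD+APS 1 that comparison was 0.01, and with a fixed block for slide, which leaves HFD+APS 1 as the only array of its arm, it was -0.59 (adjusted p = 0.259). Dgat2 and Mogat2 are neighbours on chromosome 7 with 0 annotated genes between them in the RefSeq table.

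Fitm1, an endoplasmic reticulum protein that binds triglyceride and is best known from muscle, read 1.46, 1.65 and 1.58 in chow, 3.04, 2.81 and 2.5 in HFD and 1.85, 2.55 and 2.39 in HFD+APS. Chow was lowest on every array, and HFD+APS 2 reached the level of HFD 3. Fitm1 rose 2.33-fold in HFD against chow (1.22 ± 0.20, interval 0.75 to 1.69, limma adjusted p = 0.0147), a call lost without chow 2 (1.26, adjusted p = 0.0512). HFD+APS against HFD was -0.52 ± 0.20 (interval -0.99 to -0.06, limma adjusted p = 0.229), and -0.32 without HFD+APS 1 (adjusted p = 0.319). With a fixed block for slide, where HFD+APS 1 is the only array of its arm, it was -0.94 (adjusted p = 0.103). HFD+APS remained above chow without overlap, at 0.70 ± 0.20 (limma adjusted p = 0.0904), and passed without HFD+APS 1 (0.90, adjusted p = 0.0219). Of 6 skeletal muscle markers 2 were tested and 0 were called. Their median was -0.45 in HFD against chow, with 2 at an unadjusted p under 0.05 in limma, against 31.4% of features. Their summed signal, as a multiple of each array's 75th percentile, was 0.297 to 0.343 in chow, 0.191 to 0.261 in HFD and 0.236 to 0.264 in HFD+APS. Ckm and Acta1 were well above background on 0 arrays, Myh4 on 1, Tnnt3 on 2, Myh1 on 5 and Mylpf on 8.

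**Figure D4:**
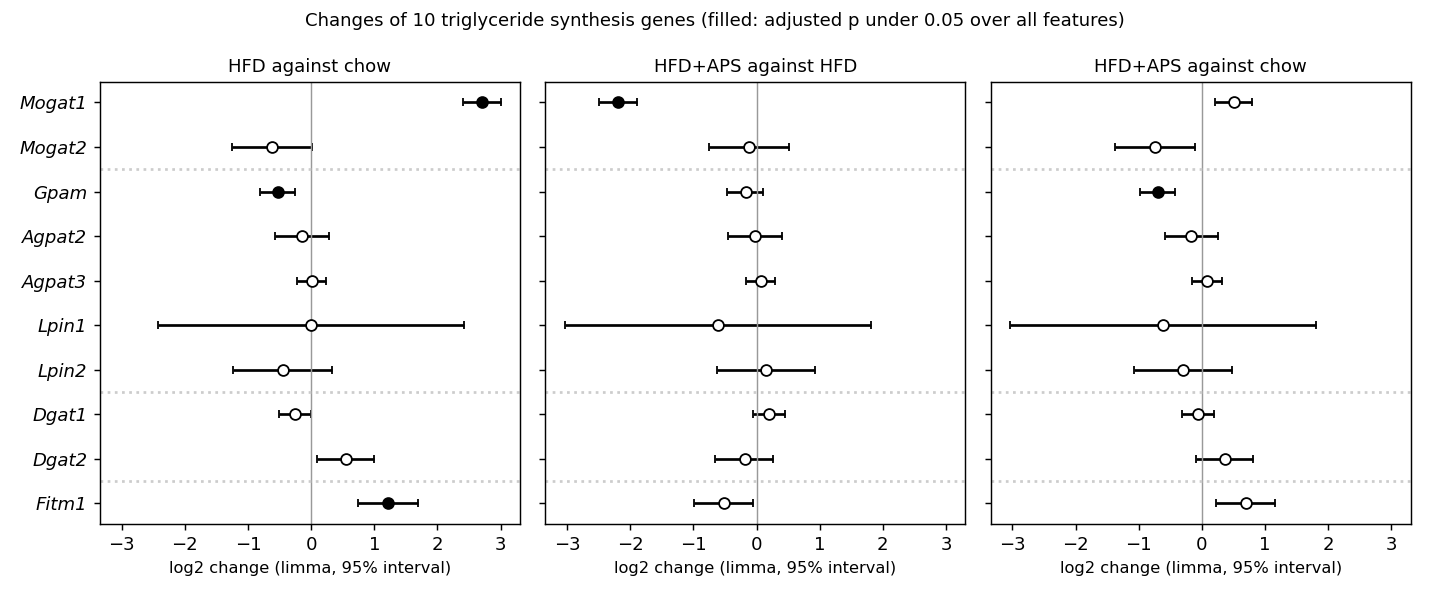
Log2 change with its 95% interval from limma (horizontal axes) for the 10 genes in the 3 comparisons; filled symbols have an adjusted p under 0.05 over all features. Filled symbols mark Mogat1 (2.70), Fitm1 (1.22) and Gpam (-0.53) in HFD against chow, Mogat1 (-2.20) for HFD+APS against HFD, and Gpam (-0.70) for HFD+APS relative to chow, and Lpin1 has the widest interval.

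Of 12 further genes of triglyceride synthesis, all tested, 1 rose and 0 fell in HFD against chow, where 10.9% of all features were called. The median was 0.05, and 4 of the 12 had an unadjusted p under 0.05, against 31.4% of features, so these counts were near those of all features. The riser was Bscl2, which encodes seipin, the protein that shapes growing lipid droplets. It read 0.32, 0.39 and 0.44 in chow, 1.06, 0.79 and 0.89 in HFD and 0.45, 0.51 and 0.57 in HFD+APS, so HFD stood above both other groups on every array. Its change was 0.53 ± 0.10 in HFD against chow (limma adjusted p = 0.0223, lost without any single chow array, HFD 1 or HFD 3, up to 0.0687). Relative to HFD, HFD+APS stood at -0.40 ± 0.10 (limma adjusted p = 0.102). The GPAT relatives of Gpam stood at 0.71 ± 0.20 for Gpat2 (limma adjusted p = 0.0535) and -0.63 ± 0.19 for Gpat4 (limma adjusted p = 0.0702), and Agpat1 at 0.38 ± 0.14 (limma adjusted p = 0.106). With HFD+APS against either other group 0 of the 12 were called, with medians of -0.21 and -0.03 and with 3 and 4 at an unadjusted p under 0.05 in limma (17.9% and 25.2% of features).

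The lists around the pathway had 0 called genes in all 3 limma comparisons. They were 4 acyl-CoA synthetases, which activate fatty acids (medians -0.27, 0.11 and -0.19; 2, 0 and 1 at an unadjusted p under 0.05), 7 genes that draw diacylglycerol or phosphatidic acid into phospholipid (0.04, 0.02 and 0.06; 2, 3 and 3) and 6 diacylglycerol kinases (-0.02, -0.03 and -0.03; 1, 0 and 2). Among all features 10.9%, 1.5% and 3.48% were called in the 3 comparisons, and 31.4%, 17.9% and 25.2% had an unadjusted p under 0.05. In HFD against chow, Acsl1, the main hepatic synthetase, stood at -0.47 ± 0.16 (limma adjusted p = 0.0862) and Acsl3, a droplet-associated synthetase, at -0.83 ± 0.28 (0.0889). Acsl5 stood at 0.16 ± 0.12 (0.412). Among the phospholipid genes Chpt1, a cholinephosphotransferase, stood at 0.53 ± 0.20 (limma adjusted p = 0.112), Pcyt2 at -0.33 ± 0.13 (0.128) and Cept1 at 0.20 ± 0.13 (0.318). The kinases with the smallest p were Dgkh at -0.47 ± 0.17 (limma adjusted p = 0.104), Dgka at 0.24 ± 0.12 (0.208) and Dgkz at 0.19 ± 0.11 (0.261).

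The features whose profile over the 9 arrays lay closest to that of Mogat1, by root mean square difference after centring each on its mean, were compared over 17619 features. They were Rcan2, a calcineurin regulator (0.29), Pbk, a mitotic kinase (0.31), Cd36, a fatty acid uptake receptor (0.31), Anxa2, a membrane-binding annexin (0.32), and Tceal8 (0.32). Being chosen for likeness, their changes are a description: in HFD less chow they were 2.55, 2.49, 2.07, 2.26 and 2.12, and in HFD+APS less HFD -2.23, -2.13, -1.74, -1.85 and -1.72. Pbk was dim, at -5.24 to -5.17 in chow, -2.84 to -2.55 in HFD and -5.59 to -4.34 in HFD+APS. Its changes thus rest on low signals, and a probe needed only 3 arrays well above background to be kept.

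Markers of other cells moved with the diets in places, and their part in the changes of Mogat1, Gpam and Fitm1 was not tested. MOGAT activity is typical of intestine and adipose tissue as well. Of 6 enterocyte markers 2 were tested, and Fabp2, which liver also makes, rose in HFD (0.99 ± 0.22, limma adjusted p = 0.031, lost without any single chow array, HFD 1, HFD 2 or HFD+APS 3). Alpi, an intestinal phosphatase, was well above background on 9 arrays and stood at -0.30 ± 0.16 in HFD against chow and -0.52 ± 0.16 for HFD+APS relative to chow (limma adjusted p = 0.255 and 0.106). The defining markers Vil1, Sis, Lct and Cdx2 were well above background on 0 arrays, and the summed signal was 64.4 to 75.7 in chow, 93 to 172 in HFD and 114 to 123 in HFD+APS. Nearly all of that sum was Fabp2, at 6 to 7.42 on the log2 scale against -2.51 to -1.56 for Alpi. Of 6 adipocyte markers 2 were tested and 0 called, with medians of 2.85 in HFD against chow, -3.11 in HFD+APS against HFD and -0.26 in HFD+APS against chow (2, 2 and 0 at an unadjusted p under 0.05 in limma). The shares of all features at that unadjusted threshold were 31.4%, 17.9% and 25.2%. Cfd, or adipsin, read 2.44, -2.28 and -3.48 in chow, 4.41, 1.42 and 4.18 in HFD and -2.16, -1.60 and -1.59 in HFD+APS, so chow 1 lay among the HFD arrays. Fabp4, a fatty acid carrier of adipocytes and macrophages, read 2.42, 0.69 and 1.64 in chow, 2.75, 2.57 and 3.19 in HFD and 1.92, 1.70 and 1.59 in HFD+APS, so every HFD array lay above all others, as for Mogat1. It stood at 1.25 ± 0.39 in HFD against chow and -1.10 ± 0.39 for HFD+APS relative to HFD (limma adjusted p = 0.0716 and 0.194). The adipocyte sum was 1.82 to 10.8 in chow, 8.61 to 28 in HFD and 3.35 to 4.02 in HFD+APS, and Lep, Adipoq, Plin1 and Retn were well above background on 0, 1, 1 and 2 arrays.

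In HFD against chow the 6 hepatocyte markers had 0 risers and 1 faller, Tat (-0.73 ± 0.18, limma adjusted p = 0.0417), and summed to 1740 to 1960 in chow, 1440 to 1780 in HFD and 1450 to 1850 in HFD+APS. Of 6 stellate and 6 endothelial markers 2 each rose and 0 fell (Col1a1, Col3a1, Clec4g and Oit3). Over all features 4.55% were called higher and 6.39% lower in HFD against chow. With 1 array left out, the call was kept in 1 of 9 fits for Tat, 5 for Col1a1, 1 for Clec4g and 2 for Oit3, and in 8 for Col3a1, which lost it without chow 2. In the same comparison, of 6 Kupffer cell and 5 cholangiocyte markers 0 passed (5 and 0 at an unadjusted p under 0.05 in limma, against 31.4% of features). The Kupffer sum was 33.9 to 49 in chow, 55 to 86.5 in HFD and 42.5 to 92.5 in HFD+APS, the stellate sum 65.1 to 117, 111 to 132 and 106 to 124, and the endothelial sum 27.2 to 44.3, 53.3 to 63.8 and 57.9 to 66.2. The cholangiocyte sum was 6.05 to 6.24, 6.5 to 47.1 and 5.77 to 6.82, and the 47.1 was HFD 3, where Spp1 read 5.49 against 2.18 to 2.83 on the other arrays. No marker of these lists was called in either limma comparison of HFD+APS, where 1.5% (against HFD) and 3.48% (against chow) of features were. For HFD+APS relative to HFD, Col3a1 stood at -1.49 ± 0.30 (limma adjusted p = 0.0585) and Col1a1 at -1.69 ± 0.45 (0.112), opposite to their rise with HFD. At an unadjusted p under 0.05 in that comparison were 3 hepatocyte markers, Apoa1 (0.67), Tat (0.62) and Ttr (-0.61), 2 stellate markers and 0 of the Kupffer, endothelial and cholangiocyte lists. Over all features the share was 17.9%.

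Mogat1 and Gpam changed in opposite directions in HFD against chow, although the Gpam call was lost in 13 of 20 alternative fits. The 250 bases before a start of each gene are shown to let their upstream letters be compared. The windows are from RefSeq on GRCm38.p6, where 7 of the 10 members had an entry, with 10 windows in all. Letters searched on both strands were AGGTCA (a nuclear receptor hexamer, in 14.0% of 32851 windows of the same length), CACGTG (an E-box, 6.02%), CCAAT (33.8%) and TCACNCCAC (a sterol regulatory element, 1.05%), with matches in capitals.
Mogat1 (chr1:78510810-78511059, plus strand): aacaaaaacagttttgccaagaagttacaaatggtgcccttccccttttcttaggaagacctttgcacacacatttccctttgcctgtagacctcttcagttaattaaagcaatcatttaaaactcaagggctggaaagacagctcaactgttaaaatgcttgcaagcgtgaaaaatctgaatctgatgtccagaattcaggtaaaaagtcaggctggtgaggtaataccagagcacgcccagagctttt
Gpam (chr19:55099478-55099727, minus strand): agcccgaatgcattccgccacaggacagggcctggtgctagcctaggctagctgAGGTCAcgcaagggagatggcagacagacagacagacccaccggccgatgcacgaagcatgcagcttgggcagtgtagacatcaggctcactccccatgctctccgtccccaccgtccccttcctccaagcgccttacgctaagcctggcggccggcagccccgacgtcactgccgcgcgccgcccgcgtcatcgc
The Mogat1 window held no match to the 4 sets of letters, and the Gpam window held 1 AGGTCA. A second Gpam window held CCAAT in place of AGGTCA, and the windows of Fitm1, Agpat2 and Agpat3 held no match. The Lpin1 window held 1 AGGTCA as well, so that hexamer was not particular to Gpam. An Lpin2 window held CACGTG, another held CCAAT 3 times and another held no match. These matches describe letters in these windows and say nothing of binding.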

How the data were processed

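The authors labelled liver RNA of 9 mice with Cy3 and put each on its own Agilent mouse array. Feature Extraction read the scans, in version 10.7 by the submitters' processing notes and 10.7.1.1 by the headers. The values used are processed signals, an intensity for each spot from which the software had taken background, per the file headers, with no scaling between arrays. The authors' deposited table holds log2 values, each array correlating with the log2 processed signal at 0.9969 or more, with medians from 4.98 to 5. From the values it is on the log2 scale with genes not centred. The normalization behind it is not given in the sources used here.

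Here, with R 4.3.3, control and outlier-flagged spots were left out, spots of a probe were averaged on the log2 scale and the 75th percentile of each array was taken off. A probe was kept if well above background on at least 3 of the 9 arrays (26478 probes), and the brightest represented its gene. Probes were named through RefSeq's table (7426 of 41174 had no match and kept the file's name). The fit was limma 3.58.1 (lmFit and eBayes) over all 9 arrays with 6 residual degrees of freedom, and its code was tested on simulated data. The upper-quartile signal was 209.68 to 264.74. Precision is limited by having 3 arrays a group. Labels give separate animals.

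The members and lists were chosen with earlier results of these data known. Named are all members, the called genes of each other list (of the marker lists, by count or name), up to 3 more with the smallest p in HFD against chow, and 5 features nearest to Mogat1. Genes of a list that were on the array but did not pass the filter (Acsl6, Cds1 and Dgkg among the pathway lists) were not tested. Alternatives were other scalings, background correction, filters, probe rules, array weights, slide and replicate blocks, 2-group fits and leaving out each array. Positions are mm9, promoter windows GRCm38.p6, and no coordinate was converted.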

Additional observations from a re-analysis of the deposited data

How the results depend on the processing

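Both Mogat1 calls were made in every alternative fitted (20 for HFD against chow, 21 for HFD+APS against HFD). With normexp background correction its changes were 2.24 and -1.86. The number of members called in HFD against chow was 3 as reported and 1 to 4 with 1 array left out, the lowest without chow 2. For HFD+APS relative to HFD it was 1 under every alternative. For HFD+APS relative to chow it was 1 as reported, and 0 with median scaling, normexp, no filter on dim probes, slide as a random block or the replicate block. It was 2 over probes well above background on all 9 arrays, 2 with the mean of a gene's probes, 5 with array weights, and 0 to 2 with 1 array left out. Of all features, 865 of 13234 were called with that filter, 551 of 17634 with the mean of probes and 3527 of 17634 with array weights. Lpin1 in HFD against chow, at 0 as reported, had no direction to keep: it was -0.55 with array weights and -1.11 to 0.89 with 1 array left out. Changes that turned sign were of members not called in that comparison. In HFD against chow they were Agpat3 (-0.01 with normexp, the authors' table and array weights, -0.06 without chow 1, -0.01 without HFD 3) and Mogat2 (0.57 with the mean of its probes). For HFD+APS relative to HFD they were Agpat2 (0.06 with median scaling, 0.13 with slide as a fixed block, -0.10 to 0.07 with 1 array left out), Mogat2 (0.30 with slide as a fixed block, -0.33 to 0.14 with 1 array left out), and, with 1 array left out, Lpin2 (-0.06 to 0.35, below 0 without HFD 3), Lpin1 (-1.14 to 0.10, above 0 without HFD+APS 1) and Dgat2 (-0.34 to 0.01, above 0 without HFD+APS 1). For HFD+APS relative to chow they were Mogat2 (0.17 with the mean of its probes), Lpin1 (-1.72 to 0.28, above 0 without chow 3 or HFD+APS 1) and Dgat1 (0.08 with median scaling). The cause of these turns and losses was not tested. Over the members, 556 values kept direction and side of the threshold, 25 lost a call, 9 gained one and 20 turned sign, with Lpin1 in HFD against chow counted as kept because its reported change rounds to 0. A fixed block for slide leaves HFD+APS 1 as the only array of its arm.

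Groups share replicate numbers. The deviations of same-numbered arrays correlated between -0.17 and 0.16 (3 of 9 pairs over 0.1), and those of differently numbered arrays between -0.19 and 0.22 (3 of 18). The ranges were alike, but with 3 arrays a group they cannot exclude a pairing. With the replicate block Mogat1 stood at 2.70 (limma adjusted p = 0.00608) and -2.20 (0.0117), 2 members were called in HFD against chow and the Gpam calls were lost (0.0658 and 0.0635).

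The share of all features called depends strongly on the fit. In HFD against chow 1929 were called as reported, 684 with slide as a random block, 798 without a filter, 3253 with array weights and 365 to 2711 with 1 array left out. In HFD+APS against HFD the count was 265, and 164, 79, 1333 and 51 to 578 in the same fits, 82 with the replicate block and 25 with only the 2 groups compared. In HFD+APS against chow it was 614, and 165, 224, 3527 and 21 to 1608, with 296 with the replicate block and 347 with only the 2 groups. Median scaling moved the median of all features in HFD+APS against chow from -0.03 to 0.11. Dim probes such as those of Mogat2 limit what can be said of low signals.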

Other observations

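The profile of Lpin1, the member that varied most between mice of the same diet, was set against all other features after its values were seen. The nearest were Usp2, a deubiquitinase, at a root mean square difference of 0.75 on the log2 scale over the 9 arrays, Plekhf1 (0.76), the clone AK085406 (0.76), Pfkfb3, which makes a regulator of glycolysis (0.76), and the transcript TC1691080 (0.77). These distances are larger than the 0.29 to 0.32 of the features nearest to Mogat1, while Lpin1 itself spans 3.99.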
